A study of Mus musculus with 28 samples.

Results

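The 10 genes described here are the receptors for corticosterone in mouse brain and 8 target genes that glucocorticoids are known to induce. They were chosen by symbol from the Ensembl mouse identifiers of the count files, and all 10 were found once each among the 52636 genes counted. The receptors are Nr3c1, the glucocorticoid receptor, and Nr3c2, the mineralocorticoid receptor. The targets are Fkbp5, Sgk1, Tsc22d3, Hif3a, Zbtb16, Ddit4, Cdkn1a and Errfi1.

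Total RNA was sequenced from punches of the ventromedial prefrontal cortex (vmPFC) of 28 individual female mice. The mice fell into 4 groups of 7: LacZ virus at baseline, LacZ virus after 3 days of a stress procedure that the labels abbreviate as sCVS, Slit1 knockdown virus at baseline, and Slit1 knockdown virus after the same stress. Every mouse had therefore received a virus in this region. LacZ, a bacterial enzyme, served as the control insert, and the series title concerns stress susceptibility and SLIT1, which is secreted and guides growing axons. The strain, the age, the promoter of the virus and the share of cells it reached were not given in the sources used here. Replicate numbers below only name libraries in accession order.

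Both receptors are transcription factors that wait in the cytoplasm in a complex with heat shock protein 90 and its co-chaperones. After corticosterone binds, they move to the nucleus and act on genes that carry glucocorticoid response elements. The mineralocorticoid receptor binds the hormone more tightly than the glucocorticoid receptor, and the prefrontal cortex takes part in the feedback control of the stress axis. Fkbp5 is itself a target and encodes a co-chaperone that lowers the hormone affinity of the receptor, which closes a short feedback loop within the cell.

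A consensus response element is made of AGAACA, 3 bases of any kind, and TGTTCT, and reads the same on both strands. RefSeq promoters of GRCm38.p6, 300 bases long with 250 before and 50 after the start, were given for 8 of the 10 members, 17 promoters in all. Nr3c1 and Zbtb16 had no entry. With at most 2 mismatches over the 12 fixed bases, searched on both strands, 2 of the 17 promoters held the element, and both belong to Sgk1, a kinase that acts on ion channels and transporters. Over all 32851 promoters of the table, 606 (1.84%) held it. The half-site AGAACA, on either strand and counted also inside the whole element, was in 4 of the 17 promoters and in 6233 (18.97%) of all of them. The 2 Sgk1 promoters that matched are shown with the matching stretch in capitals, and the Fkbp5 promoter is shown because the smallest p-values below concern that gene.

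Sgk1, plus strand, chr10:21993640-21993939, 0 mismatches, element at position -189 from the start: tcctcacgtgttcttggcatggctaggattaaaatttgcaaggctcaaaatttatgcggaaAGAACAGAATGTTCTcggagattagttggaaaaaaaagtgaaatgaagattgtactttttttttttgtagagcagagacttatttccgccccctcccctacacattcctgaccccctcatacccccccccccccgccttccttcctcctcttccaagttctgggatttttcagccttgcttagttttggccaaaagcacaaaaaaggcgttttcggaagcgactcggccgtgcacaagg

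Sgk1, plus strand, chr10:21985854-21986153, 2 mismatches, element at position -183: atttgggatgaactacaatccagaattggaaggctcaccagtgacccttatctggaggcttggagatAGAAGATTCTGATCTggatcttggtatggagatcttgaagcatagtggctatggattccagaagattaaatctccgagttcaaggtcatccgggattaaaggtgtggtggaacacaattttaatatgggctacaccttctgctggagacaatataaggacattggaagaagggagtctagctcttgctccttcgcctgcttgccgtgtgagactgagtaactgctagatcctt

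Fkbp5, minus strand, chr17:28486100-28486399, at best 6 mismatches and so nothing in capitals: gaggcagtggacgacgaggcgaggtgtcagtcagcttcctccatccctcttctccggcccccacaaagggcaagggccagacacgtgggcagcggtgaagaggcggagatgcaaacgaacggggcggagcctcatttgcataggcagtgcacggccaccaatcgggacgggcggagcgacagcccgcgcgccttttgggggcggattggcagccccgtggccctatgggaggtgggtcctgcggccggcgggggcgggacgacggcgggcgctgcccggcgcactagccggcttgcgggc

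A match of letters in these windows is a description and not a binding site. Absence of a match says only that these letters are not within these 300 bases, and nothing was read from it about the receptors.

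Depth and library quality set the background for the members' values. Total counts ran from 30.6 M to 44.3 M fragments over the libraries, and the middle value was 39.6 M, and the first principal component of log2 CPM over all genes tested carried 58.8% of the variance. CPM (counts per M counted fragments) are given after scaling by the trimmed mean of M values (TMM). Slit1 itself, the targeted gene, was not lower in the libraries labelled as its knockdown. It was at 24.4 ± 16.1 CPM (SD, n = 7) against 25.9 ± 17.5 without stress and at 19.8 ± 10.2 against 18.2 ± 9.805 with stress, LacZ first. The log2 fold change averaged over both stress states was -0.02 ± 0.30 (SE, edgeR adjusted p = 1.00), so each direction below rests on the label. Summed markers of bone and meninges, striatum or T cells stood apart in 3 libraries, the ones left out together further below. Bone and meninges genes reached 2363 CPM in stressed knockdown replicate 2 against 58.2 CPM in the lowest library of its group. Striatal genes reached 253 CPM in stressed knockdown replicate 7, and T cell genes were at 1.31 CPM in 1 stressed LacZ library against a group median of 69.9 CPM. Other libraries were extreme as well and were kept. Unstressed knockdown replicate 5 had T cell genes at 7.20 CPM against a group median of 87.7 CPM. Unstressed knockdown replicate 7 had oligodendrocyte genes at 1710 CPM against a group median of 501 CPM. Markers of excitatory neurons were present in each library, with sums of 265 to 1576 CPM.

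Across the 4 pairwise comparisons, both averages and the interaction, none of the members passed an adjusted p under 0.05 in edgeR's quasi-likelihood test, and neither did any other gene (0% of 19171 tested in each of the 7). DESeq2 and limma voomWithQualityWeights also called 0 genes in each. The statements below therefore concern values, their errors and unadjusted p-values, set beside the share of all genes that reached an unadjusted p under 0.05. All 10 members passed the filter on low counts. In bulk tissue, fewer cells of a type and less RNA per cell cannot be told apart.

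Counts cover whole gene spans with introns, so levels were compared between genes per kilobase of span. Nr3c1 was at 3.75 ± 1.33 CPM per kb (SD, n = 28), followed by Ddit4 at 2.71 ± 1.36 and Errfi1 at 2.17 ± 0.429. Cdkn1a (0.647 ± 0.353), Tsc22d3 (0.644 ± 0.154), Nr3c2 (0.545 ± 0.203) and Sgk1 (0.537 ± 0.0780) formed the next set, and neighbours in it differed by less than their SD. Zbtb16 at 0.347 ± 0.148 and Fkbp5 at 0.331 ± 0.0915 CPM per kb were likewise within their spread of each other, and Hif3a was lowest at 0.0854 ± 0.0364. Exons make up 81.0% of the span of Ddit4 and 1.87% of that of Nr3c2, so the share of intron reads behind these levels differs between genes. The order itself depends on the divisor. Undivided, Nr3c2 was at 188 CPM with 6474 exonic bases, and Ddit4 was at 5.88 CPM with 1755. Levels per exonic base were not computed, so the order above is one of counts per span only.

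**Figure D1:**
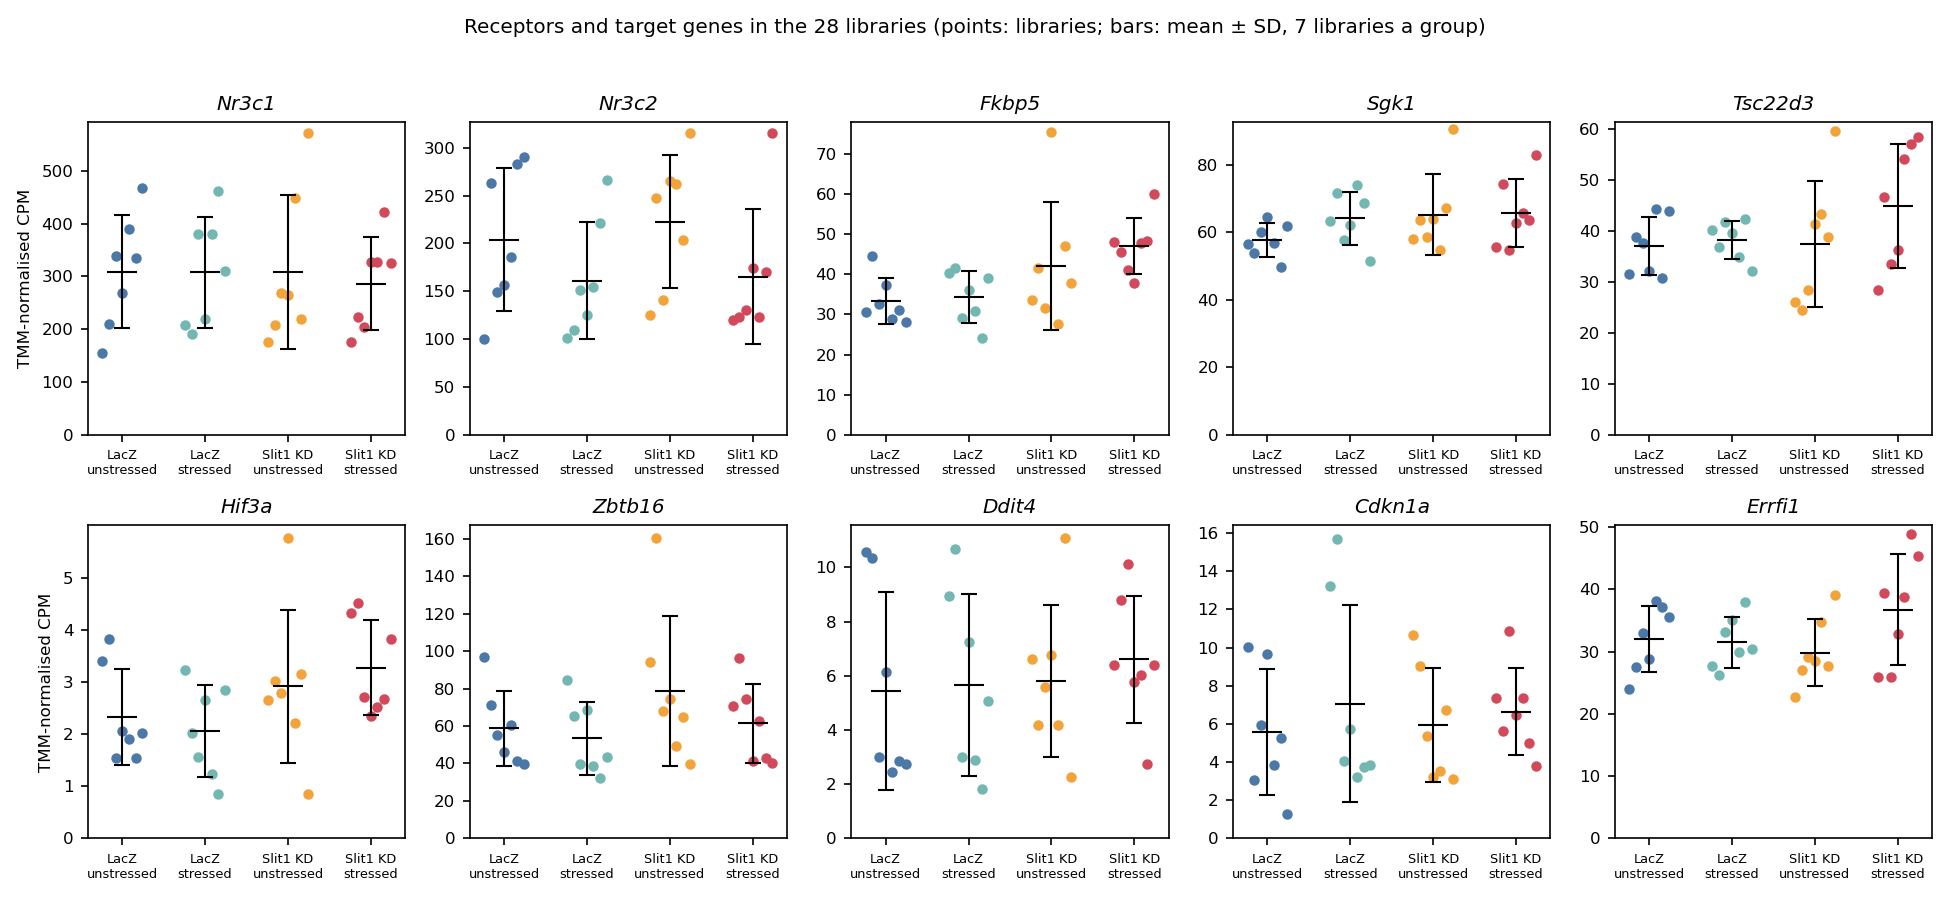
Normalised CPM (vertical axes, each from 0) of the 10 members in the 28 libraries, by virus label and stress; points are libraries and bars are the mean ± SD of 7. The groups overlap for all 10 genes, and 1 unstressed knockdown library stands high at 75.4 CPM for Fkbp5.

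Nr3c1 differed little between the groups and widely between libraries. From lowest through median to highest it was at 156, 335 and 467 CPM in LacZ unstressed libraries and at 191, 311 and 462 CPM in LacZ stressed libraries. The knockdown-labelled libraries were at 177, 264 and 572 CPM without stress and at 175, 325 and 423 CPM with stress. All 4 ranges overlapped over most of their length. The log2 fold change with stress was -0.01 ± 0.28 (SE) under LacZ and -0.10 ± 0.28 under the knockdown label. With the knockdown label it was -0.01 ± 0.28 unstressed and -0.10 ± 0.28 stressed.

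Nr3c2 (GRCm38 chromosome 8, 76899442 to 77245012, plus strand) had the lowest log2 fold change of the 10 members in both stress comparisons. It was at 99.8, 185 and 290.0 CPM in LacZ unstressed and at 101, 151 and 266 CPM in LacZ stressed libraries. Under the knockdown label it was at 125, 247 and 315 CPM unstressed and at 120.3, 130.0 and 316 CPM stressed. The medians were lower with stress under both viruses, and the ranges overlapped almost in full. Averaged over the viruses the log2 fold change with stress was -0.38 ± 0.19 (SE, unadjusted p = 0.0579, adjusted p = 1.00 by edgeR), with 3 of 14 stressed libraries above the unstressed mean of log2 CPM. Under the knockdown label alone it was -0.43 ± 0.27, and -0.67 without stressed knockdown replicate 7, the library with high striatal markers, where Nr3c2 was at 316 CPM. Without unstressed knockdown replicate 7 it was instead -0.31 (unadjusted p = 0.281 by edgeR). The average over the viruses was then -0.32 (unadjusted p = 0.113 by edgeR). Under LacZ alone the log2 fold change was -0.34 ± 0.27. Without the 3 libraries that stood apart, the average was -0.46 ± 0.19 (unadjusted p = 0.0272), when 5.82% of all genes were under 0.05. In the stress comparisons 0 of the 10 members were at an unadjusted p under 0.05, against 0.402% of all genes under LacZ, 1.79% under the knockdown label and 2.21% in the average.

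Among the targets, Fkbp5 (chromosome 17, 28399095 to 28517524, minus strand) was higher in the libraries labelled Slit1 knockdown. Without stress it was at 28.1, 31.1 and 44.7 CPM under LacZ and at 27.7, 37.8 and 75.4 CPM under the knockdown label. With stress it was at 24.2, 35.98 and 41.5 CPM under LacZ and at 37.9, 47.7 and 60.1 CPM under the knockdown label. In the stressed groups only the ends of the ranges overlapped, and 7 of 7 knockdown-labelled libraries exceeded the mean log2 CPM of LacZ. The average log2 fold change was 0.39 ± 0.12 (SE, 95% interval 0.15 to 0.64), a 1.31-fold difference, with 12 of 14 libraries above the LacZ mean of log2 CPM and 11 of 14 above the mean CPM. Its unadjusted p of 0.0041 ranked 22 of 19171 genes, and its adjusted p by edgeR was 1.00. In the stressed groups the log2 fold change was 0.45 ± 0.18 (unadjusted p = 0.0174), and in the unstressed groups it was 0.34 ± 0.18 (unadjusted p = 0.0679).

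Much of the unstressed difference in Fkbp5 rested on 1 library. Unstressed knockdown replicate 4 held the value of 75.4 CPM, and the next in its group was 47.0 CPM. Without it the unstressed log2 fold change was 0.13 (unadjusted p = 0.383) and the average was 0.29 (unadjusted p = 0.00901). Over all 28 libraries left out in turn, the average ran from 0.29 to 0.43 (unadjusted p from 0.0015 to 0.00901). Stress under the knockdown label gave Fkbp5 a log2 fold change of 0.16 ± 0.18 with unstressed replicate 4 and 0.36 (unadjusted p = 0.0217) without it. That was the highest with 1 library left out, and the lowest was 0.08 without unstressed knockdown replicate 5 (unadjusted p = 0.657 by edgeR). Without the 3 libraries that stood apart the stressed value was 0.38 ± 0.21 (unadjusted p = 0.0735) and the average 0.36 ± 0.14 (unadjusted p = 0.0149). The interaction was 0.11 ± 0.25 (unadjusted p = 0.657), so the difference between the 2 stress states was within its error.

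Hif3a (chromosome 7, 17031507 to 17062427, minus strand), which encodes an oxygen-regulated transcription factor subunit, lay in the same direction as Fkbp5 at far lower counts of 16 to 264 fragments per library. It was at 1.53, 2.01 and 3.82 CPM in LacZ unstressed and at 0.855, 2.02 and 3.22 CPM in LacZ stressed libraries. The knockdown-labelled libraries were at 0.843, 2.78 and 5.75 CPM unstressed and at 2.35, 2.71 and 4.51 CPM stressed. The groups overlapped, with 7 of 7 stressed knockdown-labelled libraries above their LacZ mean. Without stress 6 of 7 were above the LacZ mean of log2 CPM and 5 of 7 above the mean CPM. The average log2 fold change was 0.50 ± 0.23 (SE, unadjusted p = 0.0372, adjusted p = 1.00 by edgeR) and the stressed one 0.67 ± 0.32 (unadjusted p = 0.0482). Without unstressed knockdown replicate 4, where Hif3a was also highest, the average was 0.37 (unadjusted p = 0.0977). Without stressed LacZ replicate 6 the stressed value was 0.53 (unadjusted p = 0.105). Of the span of Hif3a, 2.94% overlaps another gene.

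Fkbp5 and Hif3a were thus the 2 of 10 members at an unadjusted p under 0.05 in the average and in the stressed comparison, both higher under the knockdown label. Over all genes the shares were 1.52% and 0.824%. In the unstressed comparison 0 of 10 were, against 0.897%. The interaction gave 0 of 10, against 0.355%. Over the average, 9 of 10 members had a log2 fold change above 0, with a median of 0.12, where 44.1% of all genes tested were above 0 and their median was -0.02. The members were not chosen blind to these data, and the counts are given as a description.

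**Figure D2:**
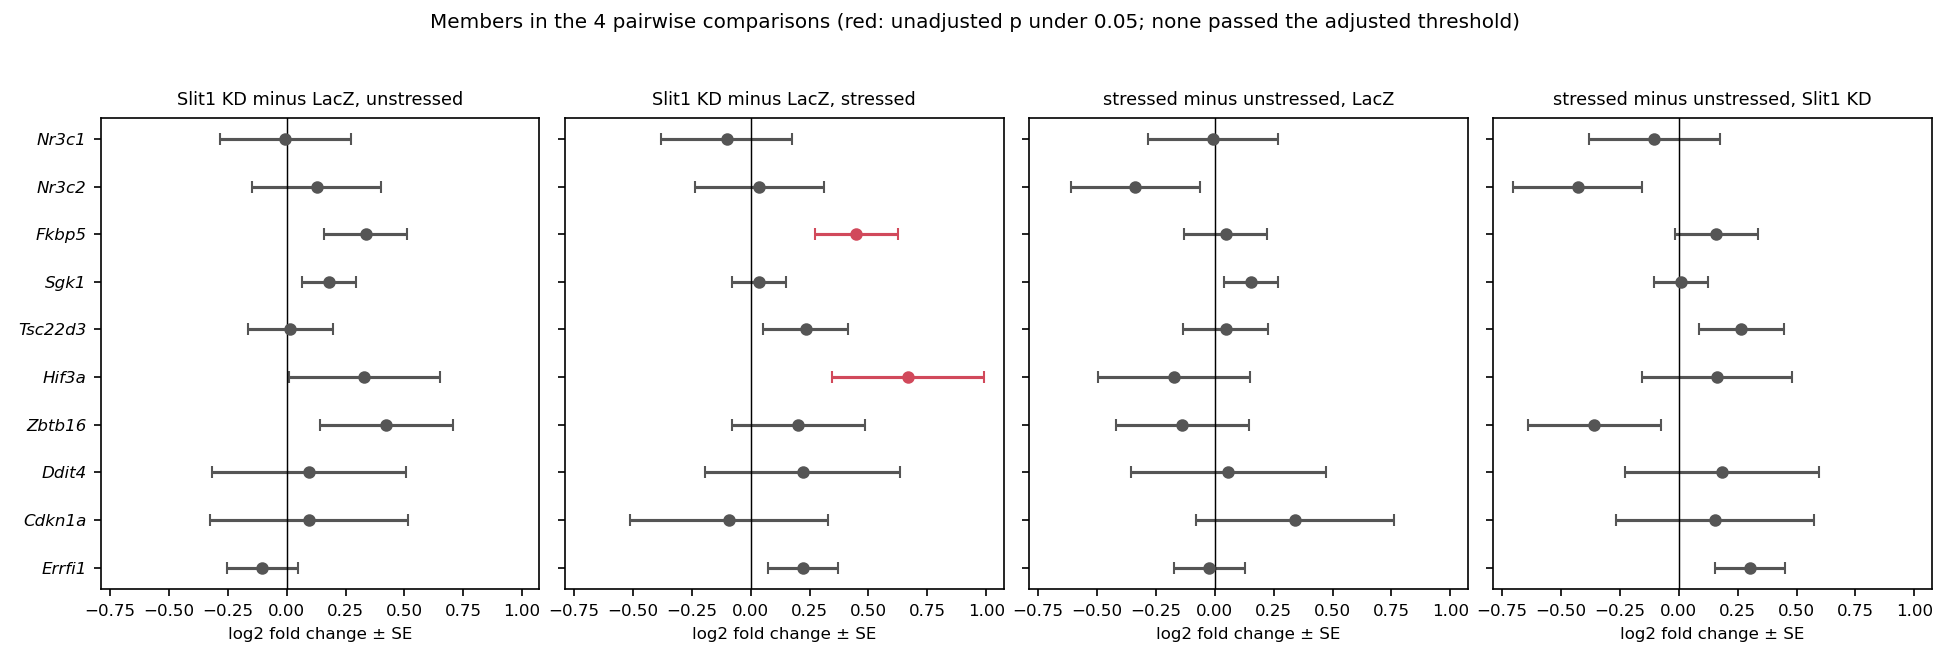
Log2 fold change ± SE (horizontal axes) of each member in the 4 pairwise comparisons of 7 against 7 libraries. Fkbp5 at 0.45 and Hif3a at 0.67 in the stressed knockdown comparison are the points at an unadjusted p under 0.05, and no point passed the adjusted threshold.

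Sgk1 (chromosome 10, 21882184 to 21999903, plus strand) had the narrowest spread of the members, with a coefficient of variation of 14.5% over 28 libraries. It was at 49.6, 56.9 and 64.5 CPM in LacZ unstressed and at 51.7, 63.5 and 73.9 CPM in LacZ stressed libraries. Libraries of the knockdown label were at 54.9, 63.7 and 90.7 CPM unstressed and at 54.8, 63.7 and 82.8 CPM stressed. The medians of the last 3 groups were nearly equal. Stress under LacZ gave a log2 fold change of 0.15 ± 0.12 (95% interval -0.07 to 0.38), with 6 of 7 libraries above the unstressed mean of log2 CPM. Stress under the knockdown label gave 0.01 ± 0.12 (interval -0.22 to 0.24).

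Tsc22d3 (chromosome X, 140539528 to 140600659, minus strand) encodes GILZ, a leucine zipper protein that carries part of the anti-inflammatory action of glucocorticoids. It was at 30.8, 37.6 and 44.2 CPM in LacZ unstressed and at 32.1, 39.5 and 42.3 CPM in LacZ stressed libraries. Under the knockdown label the ranges were wider, with 24.6, 38.8 and 59.6 CPM unstressed and 28.4, 46.6 and 58.5 CPM stressed. Each knockdown-labelled range contained the LacZ range of the same stress state. The log2 fold change with stress was 0.05 ± 0.18 under LacZ (interval -0.31 to 0.40) and 0.26 ± 0.18 under the knockdown label. With 1 library left out in turn, the latter ran from 0.18 without unstressed knockdown replicate 2 to 0.43 without unstressed knockdown replicate 7. The unadjusted p by edgeR ran from 0.0167 to 0.316.

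Errfi1 (chromosome 4, 150853919 to 150868892, plus strand) encodes MIG6, an inhibitor of the EGF receptor. It was at 24.1, 32.99 and 38.1 CPM in LacZ unstressed and at 26.3, 30.5 and 37.9 CPM in LacZ stressed libraries. Under the knockdown label it was at 22.7, 28.5 and 39.1 CPM unstressed and at 25.9, 38.8 and 49.0 CPM stressed. The stressed knockdown group reached highest and still overlapped the others. Stress gave a log2 fold change of 0.30 ± 0.15 under the knockdown label (unadjusted p = 0.0544) and -0.02 ± 0.15 under LacZ. The difference of these 2 effects was 0.33 ± 0.21 (unadjusted p = 0.136, adjusted p = 1.00 by edgeR). Another gene overlaps 6.89% of the span of Errfi1, and counts were made without strand.

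Zbtb16, a zinc finger repressor also known as PLZF, varied most under the knockdown label without stress. It was at 39.7, 55.4 and 96.9 CPM in LacZ unstressed and at 32.4, 43.6 and 84.8 CPM in LacZ stressed libraries. It was at 39.7, 68.0 and 161 CPM in unstressed and at 40.45, 62.9 and 96.3 CPM in stressed libraries of the knockdown label. Ranges overlapped in each pair, and the value of 161 CPM came from unstressed knockdown replicate 2. The log2 fold change averaged over stress was 0.31 ± 0.20 with the knockdown label, and averaged over viruses it was -0.25 ± 0.20 with stress. Without unstressed knockdown replicate 2 these were 0.17 and -0.11.

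Ddit4 (chromosome 10, 59949669 to 59951834, minus strand), which encodes REDD1, an inhibitor of mTORC1 signalling, and Cdkn1a (chromosome 17, 29090979 to 29100722, plus strand), which encodes the cell cycle inhibitor p21, differed most between libraries relative to their level. Ddit4 ran from 1.82 to 11.1 CPM over the 28 libraries with group medians of 3.00 to 6.38 CPM. Cdkn1a ran from 1.26 to 15.7 CPM with group medians of 4.06 to 6.44 CPM. The groups overlapped for both genes in each comparison. Their coefficients of variation were 50.1% and 54.5%. The standard errors of their log2 fold changes, 0.41 for Ddit4 and 0.42 for Cdkn1a in each pairwise comparison, exceeded each pairwise value, the largest being 0.34 for Cdkn1a with stress under LacZ. That value was 0.018 (unadjusted p = 0.966) without LacZ stressed replicate 2.

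Most members, like most genes, varied along a shared axis of the libraries. The relation of each member to the first principal component was computed over 28 libraries, as part of 140 relations of 10 members with 14 library measures, with permutation p-values from 100000 resamples and Benjamini-Hochberg adjustment. The component was computed from all genes tested, the members included. Nr3c1 had a Pearson r of -0.98 and a Spearman rho of -0.96 with it (each permutation p = 1e-05, the smallest these can give, adjusted p = 9.33e-05 for r and 1.08e-04 for rho). Without the 2 farthest libraries r was -0.97. Ddit4 lay at the other end with r = 0.86 and rho = 0.86 (each permutation p = 1e-05, with the same adjusted values), and r = 0.83 without the 2 farthest libraries. In all, 4 members had a positive and 4 a negative relation past an adjusted p of 0.05, and Fkbp5 (r = 0.27) and Sgk1 (r = -0.27) did not pass. An r above 0.5 in size was found for these 8 of 10 members and for 69.97% of all genes tested, so the members' share was near that of all genes. Of all genes, 79.5% had a lower r than Ddit4 and 1.46% a lower r than Nr3c1. Within libraries of title number up to 20 and above 20, 2 sets described further below, r was -0.96 and -0.99 for Nr3c1, 0.92 and 0.72 for Ddit4, and -0.51 and -0.15 for Nr3c2. The GC content of the members' longest transcripts ran in the same order at its ends, from 42.2% in Nr3c1 to 57.9% in Ddit4, where all genes tested had a median of 48.7%. The part of GC content in these relations was not tested.

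**Figure D3:**
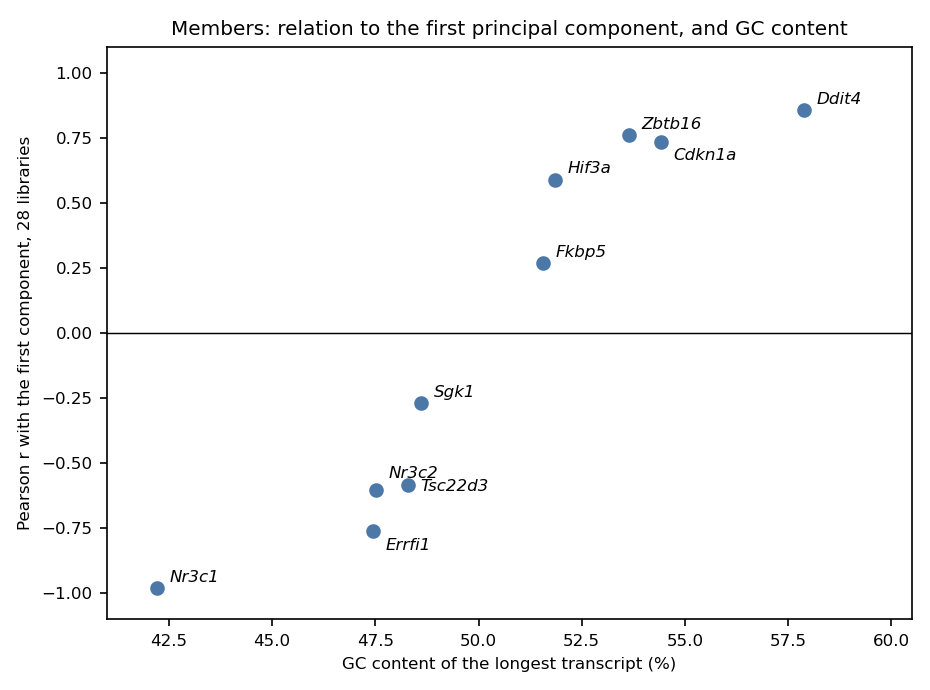
Pearson r of each member's log2 CPM with the first principal component over 28 libraries (vertical axis) against the GC content of its longest GENCODE transcript in percent (horizontal axis). Nr3c1 sits at 42.2% and -0.98, Ddit4 at 57.9% and 0.86, and the 5 members of lower GC content have a negative r.

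The libraries at the 2 ends of this axis held the extreme values of several members. Unstressed knockdown replicate 7 had the lowest component score, a mitochondrial share of 14.2% of counts and 30.6 M fragments. It held the highest value of all libraries for Nr3c1 (572 CPM), Sgk1 (90.7 CPM) and Tsc22d3 (59.6 CPM) and the lowest for Hif3a (0.843 CPM). LacZ unstressed replicate 1 had the highest score and a mitochondrial share of 3.105%. It held the lowest values of all libraries for Nr3c1 (156 CPM) and Nr3c2 (99.8 CPM). The mitochondrial share itself was related to Nr3c1 with r = 0.86 and rho = 0.88 (each permutation p = 1e-05, adjusted p = 9.33e-05 and 1.08e-04), and r was 0.83 without the 2 farthest libraries. Its part in the members' values was not tested.

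Pairs of members were then compared over the 28 libraries after the group means were taken out, 45 pairs in all. Of these, 13 positive and 13 negative correlations passed an adjusted permutation p of 0.05. With the first component also taken out, 0 of these 26 passed, 1 other pair did with a negative r, and 22 of the 45 changed sign. Nr3c1 with Nr3c2 went from r = 0.62 to r = -0.02. With group means removed, Nr3c1 had r = -0.98 with the component, so removal left little of its variation in any of its pairs. The 1 pair past the threshold was Hif3a with Cdkn1a, at r = -0.54 (permutation p = 0.001, adjusted p = 0.0473) and rho = -0.54 (permutation p = 0.0046, adjusted p = 0.0669), and r was -0.47 without the 2 farthest libraries and -0.51 and -0.58 within the title-number sets. It had been 0.21 before the component was removed.

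Several pairs of targets kept a positive value on both scales without passing the threshold after removal. Fkbp5 with Hif3a had r = 0.63 (permutation p = 0.0038, adjusted p = 0.0085) and then r = 0.59 (permutation p = 0.0066, adjusted p = 0.0593), with rho of 0.59 and then 0.44 (adjusted p = 0.0055 and 0.170). Without the 2 farthest libraries the second r was 0.34, so it rested on them. Tsc22d3 with Errfi1 had r = 0.77 (adjusted permutation p = 2.7e-04) and then 0.56 (adjusted p = 0.0593), with rho of 0.74 and then 0.53, and r = 0.55 without the 2 farthest libraries. Sgk1 with Tsc22d3 had r = 0.58 (adjusted permutation p = 0.011) and then 0.53 (adjusted p = 0.0723), with rho of 0.48 and then 0.58, and r = 0.41 without the 2 farthest. Within the sets of title number up to 20 and above 20, these r after removal were 0.44 and 0.64 for Fkbp5 with Hif3a, 0.75 and 0.33 for Tsc22d3 with Errfi1, and 0.56 and 0.52 for Sgk1 with Tsc22d3. Negative values were kept too. Nr3c1 with Hif3a had r = -0.71 (adjusted permutation p = 0.00075) and then -0.50 (adjusted p = 0.0593), with rho of -0.69 and then -0.42. Its second r was -0.49 without the 2 farthest libraries and -0.49 and -0.63 within the title-number sets. These second values rest on the little variation of Nr3c1 that removal left. Nr3c2 with Cdkn1a had r = -0.73 and then -0.49 (adjusted permutation p = 0.119). Values of a pair come from the same libraries and share their depth and tissue.

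**Figure D4:**
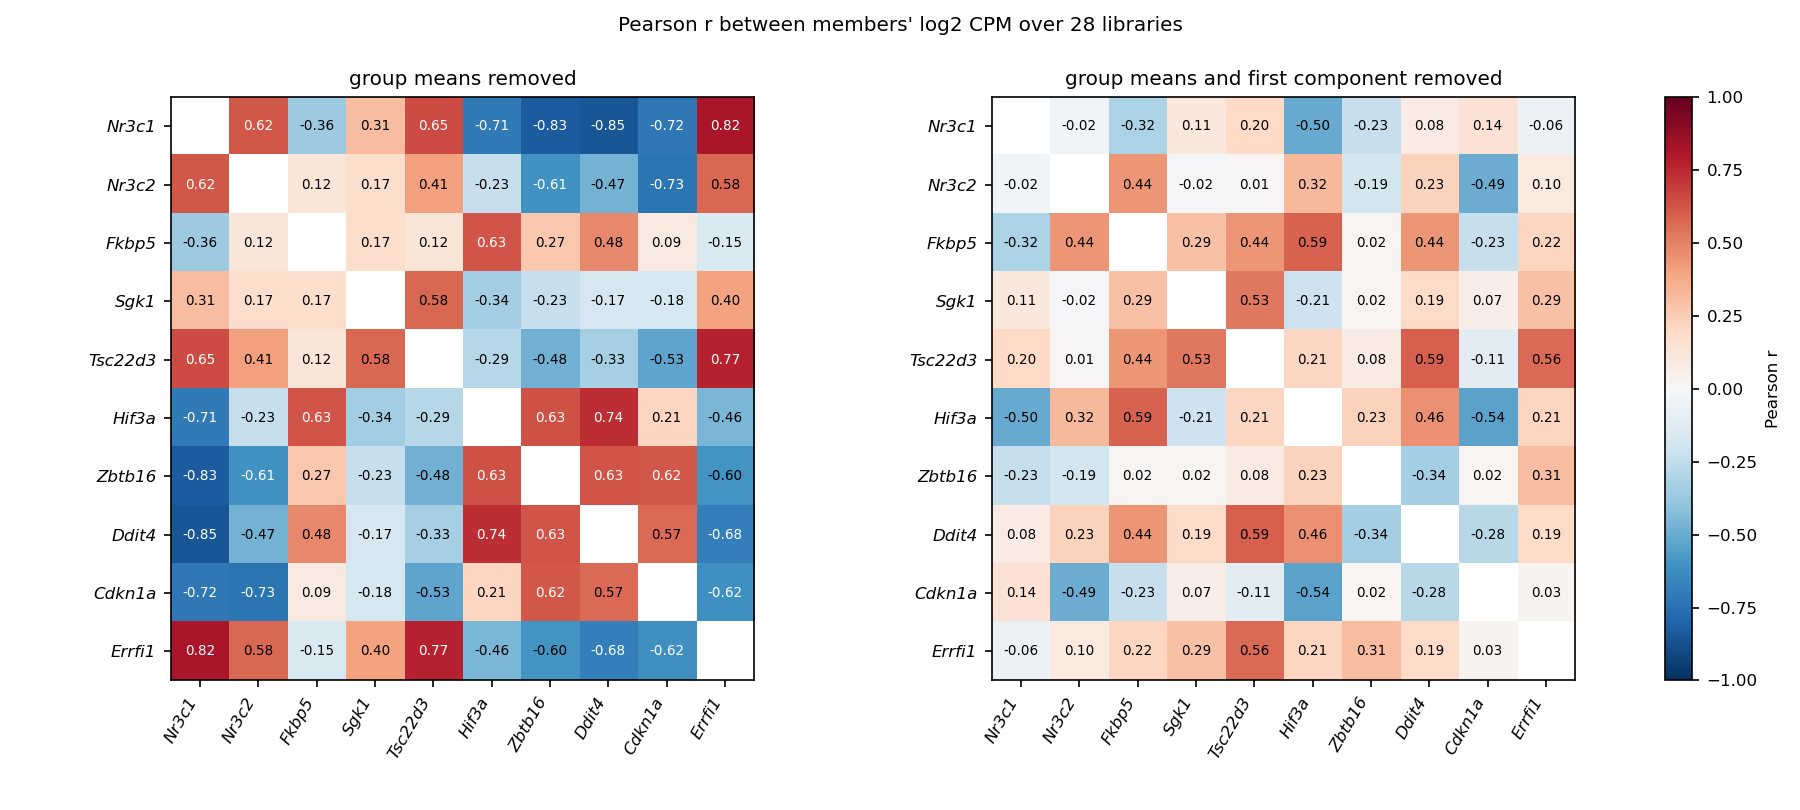
Pearson r between the log2 CPM of each pair of members over 28 libraries (colour and printed values), with group means removed (left) and with the first principal component also removed (right). Nr3c1 with Ddit4 is at -0.85 on the left and 0.08 on the right, while Fkbp5 with Hif3a is at 0.63 and 0.59.

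The genes most like Fkbp5 and Sgk1 were taken by Pearson r over the 28 libraries with group means and the first component removed, among 15121 genes with a symbol that are no predicted genes. For Fkbp5 these were Tex22 (r = 0.64), Htra4 (0.64), Ccdc141 (0.62), Folh1 (0.61) and Sntb2 (0.61). Hif3a ranked 8 in this order, and the other members ranked 187 or lower. Before the component was removed, r with Fkbp5 was 0.68 for Tex22, 0.42 for Htra4, 0.18 for Ccdc141, -0.003 for Folh1 and -0.03 for Sntb2. For Sgk1 the 5 genes were Endod1 (r = 0.67), Plekhd1 (0.66), Tmem98 (0.65), Mobp (0.64) and Pqlc2 (0.63), with Tsc22d3 at rank 62. Before removal, r with Sgk1 was 0.71 for Endod1, 0.009 for Plekhd1, 0.23 for Tmem98, 0.36 for Mobp and -0.10 for Pqlc2. Mobp, a myelin protein, is on the list of oligodendrocyte markers, and Tmem98 is known from myelin-forming cells as well. Endod1, Plekhd1 and Pqlc2 are on none of the marker lists. With the mean log2 CPM of the listed oligodendrocyte markers, Sgk1 had r = 0.21 (adjusted permutation p = 0.34). Its rho with them was 0.20 (adjusted permutation p = 0.37), and r was 0.27 with group means removed. The first component was not removed in these marker values. The r values of the genes most alike are the highest of many and carry no p.

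When the first component entered the fit as a covariate, the errors of several members shrank and more reached an unadjusted p under 0.05, as did more genes overall. For the averaged knockdown label these were Fkbp5 (0.40 ± 0.12, unadjusted p = 0.0018), Hif3a (0.53 ± 0.18), Zbtb16 (0.31 ± 0.12) and Ddit4 (0.31 ± 0.15), 4 of 10 beside 7.79% of all genes. For stress under the knockdown label they were Errfi1 (0.32 ± 0.08, unadjusted p = 0.0007) and Tsc22d3 (0.30 ± 0.14) above 0 and Zbtb16 (-0.37 ± 0.16) below, 3 of 10 beside 8.52%. The Errfi1 interaction was 0.32 ± 0.12 (unadjusted p = 0.0106), beside 0.840% of all genes. For averaged stress, Nr3c2 (-0.38 ± 0.15) and Zbtb16 (-0.28 ± 0.12) were below 0 and Errfi1 (0.16 ± 0.06) above, beside 10.5% of all genes. No gene passed an adjusted p under 0.05 in these fits by edgeR either.

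Titles number the libraries, and 15 of the 28 numbers are up to 20 and 13 above. No label calls these sets a batch, and the split was added after the data were seen. The stressed knockdown difference was larger in the set above 20, with 3 libraries against 3. There Fkbp5 was at 47.7 to 60.1 CPM against 24.2 to 39.0 CPM under LacZ, a mean log2 difference of 0.75. Tsc22d3 was at 54.1 to 58.5 against 32.1 to 42.3 CPM (0.64), and Errfi1 at 38.8 to 49.0 against 29.96 to 37.9 CPM (0.44). None of these 3 pairs of ranges overlapped, but with 3 libraries against 3 ranges can separate without any group difference. The ranges of the other members overlapped there, and of these Nr3c1 (-0.09) and Nr3c2 (-0.15) were below 0 and the rest above. The share of all genes whose ranges separate in this split was not computed. In the set up to 20, with 4 against 4, the differences were 0.24 for Fkbp5, -0.15 for Tsc22d3 and 0.01 for Errfi1, and the ranges overlapped. Hif3a differed by 1.00 above 20 and by 0.54 up to 20, with overlap in both. The difference between the sets was not tested. With the set as a covariate, the averaged knockdown value was 0.37 ± 0.13 for Fkbp5 and 0.58 ± 0.23 for Hif3a.

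Without stress the sets also diverged. Tsc22d3 was at 26.0 to 28.4 CPM in 2 knockdown-labelled libraries against 31.5 to 44.2 CPM in 5 LacZ libraries up to 20, a mean log2 difference of -0.43 with no overlap. Above 20, with 5 against 2, it was 0.12. For Fkbp5 the same differences were -0.08 and 0.55. In the unstressed comparison up to 20, Tsc22d3 was the only member whose ranges did not overlap. The share of all genes that separate there was not computed. The stress difference of Nr3c2 under LacZ was -0.43 up to 20 and -0.46 above, and under the knockdown label it was 0.03 and -0.45. Its LacZ ranges above 20 did not overlap, with 3 libraries against 2. With stress under the knockdown label, Fkbp5 and Tsc22d3 did not overlap up to 20, with 4 against 2. The share of all genes that separate in these splits was not computed either.

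**Figure D5:**
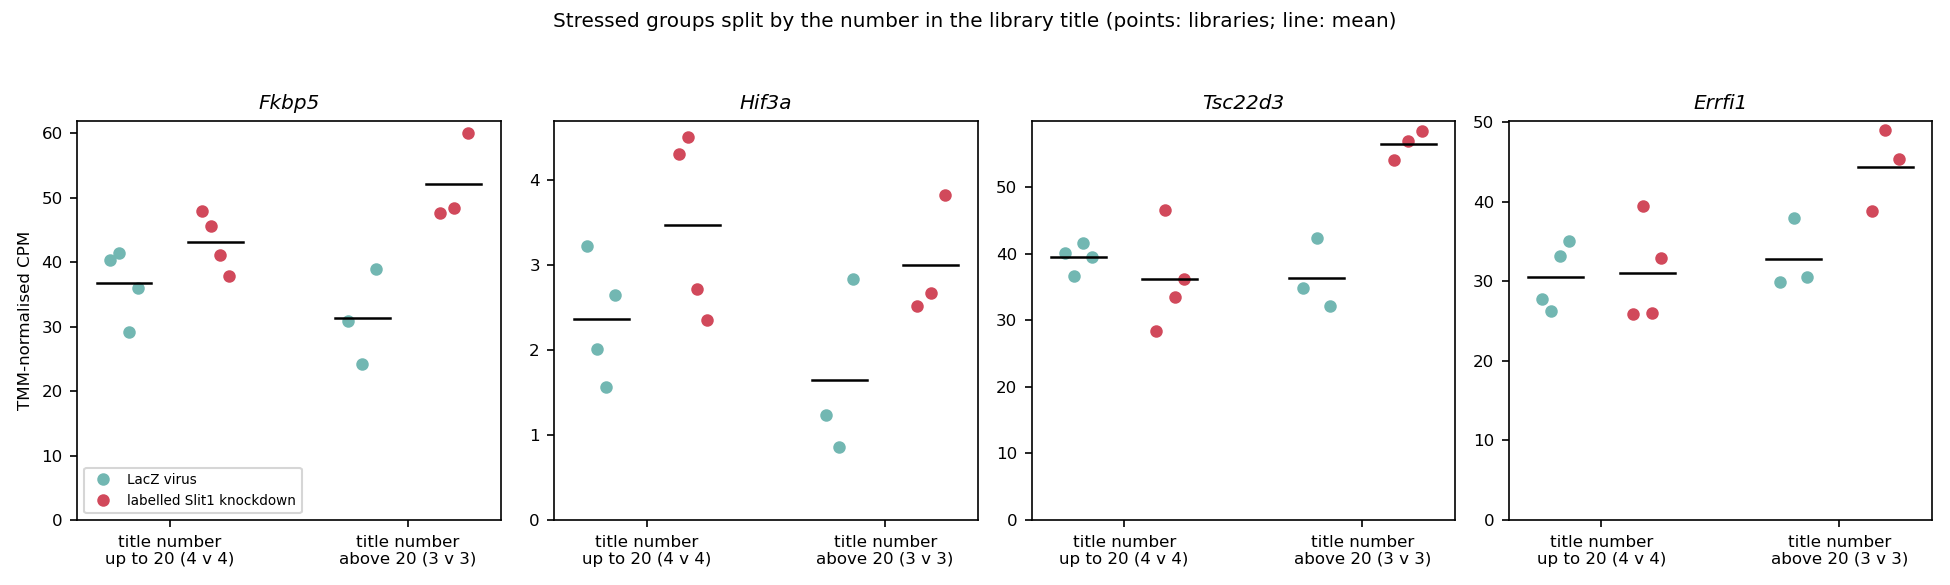
Normalised CPM (vertical axes, from 0) of 4 targets in the stressed libraries, split by title number up to 20 (4 against 4) and above 20 (3 against 3); points are libraries and lines are means. Above 20, the knockdown-labelled libraries lie above all LacZ libraries for Fkbp5, Tsc22d3 and Errfi1, and up to 20 the ranges overlap. The share of all genes that separate in this split was not computed.

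Other genes of the pathway were taken from 4 lists. In the averages, 1.52% of all genes tested were at an unadjusted p under 0.05 with the knockdown label and 2.21% with stress, and 44.1% and 46.3% were above 0. Receptor chaperones, the Hsp90 machinery that holds the receptors ready for hormone, had 0 of 12 at an unadjusted p under 0.05 in either average. With the knockdown label 0 of 12 were above 0, with a median log2 fold change of -0.13 against -0.02 for all genes, and with stress 11 of 12 were above 0, with a median of 0.04. Their lowest p in both averages belonged to Bag1, a co-chaperone, at -0.11 ± 0.09 with the label and 0.13 ± 0.09 with stress. Receptor coregulators had 7 of 12 above 0 with the label (median 0.05) and 2 of 12 with stress (median -0.11), again with 0 at an unadjusted p under 0.05. The acetyltransferase gene Crebbp was at -0.14 ± 0.08 with stress.

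Of 7 genes that set the local supply of steroid, 4 could be tested and all 4 were above 0 with the knockdown label, with a median of 0.16. Abcb1a, an efflux pump of brain vessels that carries some glucocorticoids out, was at 0.21 ± 0.13. Hsd11b1, which regenerates active hormone in the cell, is listed at 0 in all libraries, and its span lies inside other genes, so its level was not measured. Of 27 tested among 30 further glucocorticoid-responsive genes, 18 were above 0 with the label (median 0.12) and 17 with stress (median 0.03). With the label 3 of the 27 were at an unadjusted p under 0.05, where 1.52% of all genes were. These were Mertk, a phagocytic receptor (0.24 ± 0.09), Acer2, a ceramidase (0.35 ± 0.16), and Mt2, a metallothionein (0.68 ± 0.32), the last named after its value was seen. Another gene overlaps 82.8% of the span of Mt2. With stress 0 of 27 were, and Nfkbia, the inhibitor of NF-kappaB, was lowest in p at 0.36 ± 0.20.

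Markers of other cells are given for the average over stress with the knockdown label, where 44.1% of all genes were above 0 and 0 of these markers passed an adjusted p of 0.05. T cell genes were above 0 in 6 of 6 (median 0.56), with 0 at an unadjusted p under 0.05, with summed levels of 15.02 to 123 and 1.31 to 167 CPM in the LacZ groups and 7.20 to 142 and 39.0 to 196 CPM in the knockdown-labelled groups, unstressed first. Bone and meninges genes were above 0 in 6 of 6 (median 2.53), with 5 at an unadjusted p under 0.05, with sums of 17.1 to 80.4 and 16.3 to 75.4 CPM in the LacZ groups and 33.7 to 74.0 and 58.2 to 2363 CPM in the knockdown-labelled groups. The 2363 CPM was that of stressed knockdown replicate 2, and the median sum of its group was 66.4 CPM. Median sums were 33.2 and 46.4 CPM in the LacZ groups, unstressed first, and 49.9 CPM in the unstressed knockdown group. Immediate early genes, which follow neuronal activity, were above 0 in 0 of 8 (median -0.38) with 0 at an unadjusted p under 0.05, and their sums ran from 38.9 to 162 CPM under LacZ and from 41.4 to 93.1 CPM under the knockdown label. Striatal markers were above 0 in 5 of 5 tested (median 0.35), with 1 at an unadjusted p under 0.05 and sums of 38.1 to 128 and 43.3 to 79.3 CPM in the LacZ groups and 39.4 to 103 and 36.7 to 253 CPM in the knockdown-labelled groups. The 253 CPM was that of stressed knockdown replicate 7, and the median sum of its group was 59.7 CPM. Excitatory neuron markers were above 0 in 1 of 6 (median -0.15), with sums of 420.0 to 1576 and 543 to 1139 CPM under LacZ and 497 to 1089 and 265 to 1171 CPM under the knockdown label. None of these markers was at 0 in all libraries.

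Over the 28 libraries, Fkbp5 was related past an adjusted permutation p of 0.05 to 0 of the 14 library measures by r and to 4 by rho, which were the microglia, oligodendrocyte precursor, endothelial and T cell markers. In the averaged knockdown label, microglia markers were above 0 in 5 of 6 (median 0.14) and endothelial markers in 3 of 6 (median 0.05). Precursor markers were above 0 in 3 of 3 tested (median 0.09), and 44.1% of all genes were above 0. For microglia markers r was 0.43 (permutation p = 0.0235, adjusted p = 0.0514) and rho was 0.47 (permutation p = 0.0123, adjusted p = 0.0287). Without the 2 farthest libraries r was 0.41, and within the sets of title number up to 20 and above 20 it was 0.53 and 0.64. Hif3a was related to 7 measures by r and to 7 by rho. The highest r was with the log2 total count, at 0.71 (permutation p = 4e-05, adjusted p = 2.67e-04) with a rho of 0.68 (permutation p = 1.2e-04, adjusted p = 5.09e-04). It was 0.62 without the 2 farthest libraries and 0.62 and 0.84 within the title-number sets. The part of depth and of these cell types in the Fkbp5 and Hif3a values was not tested.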

How the data were processed

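RNA from 28 mice was sequenced, 7 per group. The authors deposited raw fragment counts for each gene and library. Per the file headers, featureCounts 1.6.2 counted whole genes of Ensembl release 90 on GRCm38 without a strand option; HISAT2, Subread and DESeq2 stand in the submitters' processing notes. Introns are therefore counted, and fragments in overlapping genes cannot be assigned.

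Of 52636 genes, 52403 identifiers were matched to symbols. Genes were kept by filterByExpr, given TMM factors and tested in edgeR 4.0.16 (robust quasi-likelihood, R 4.3.3) in 1 fit of all 28 libraries, with Benjamini-Hochberg adjustment over 19171 genes. Standard errors came from the log2 fold change and the F statistic, and 95% intervals are 1.96 standard errors to each side. Log2 CPM used a prior count of 2. The code was tested on simulated data. DESeq2 1.42.0, limma 3.58.1, other factors and filters, covariates and libraries left out were tried as alternatives.

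Members and lists were chosen with earlier results of these data known. All members were named, with the 2 genes of smallest p per list and the 5 genes most like Fkbp5 and Sgk1.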

Additional observations from a re-analysis of the deposited data

Results flagged for a closer look

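Each member was examined in each group of 7 libraries for a library far from the others, 40 groups in all. Of these, 2 stood out, which is no more than the rate of about 1 in 20 that chance gives. Nr3c2 was at 316 CPM in stressed knockdown replicate 7, and the next library of the group was at 175 CPM. The gap was 0.614 of the group's whole range on the log2 scale, above Dixon's critical value of 0.568. This library also had the highest summed level of striatal markers, 253 CPM, whose part in the Nr3c2 value was not tested.

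Sgk1 was at 90.7 CPM in unstressed knockdown replicate 7, and the next library was at 67.2 CPM, a gap of 0.599 of the range. The same library had the lowest total, 30.6 M fragments, the highest mitochondrial share, 14.2%, and an oligodendrocyte marker sum of 1710.1 CPM against a group median of 501 CPM. The part of these in the Sgk1 value was not tested.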

How the results depend on the processing

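The count of genes past an adjusted p of 0.05 was 0 in each of the 7 comparisons and 0 in each of 263 recomputed counts. Of 600 member values under the alternatives that keep all libraries or drop the 3 that stood apart, 7 reversed beyond their error, and of 1960 values with 1 library left out 0 did. With voomWithQualityWeights, which lowers the weight of noisy libraries, Nr3c1 was at 0.20 with stress under the knockdown label and 0.18 in averaged stress, and Cdkn1a was at 0.64 with the label in stressed mice (unadjusted p = 0.0477), -0.44 with stress under LacZ and 0.79 in the interaction. With the title-number set as a covariate, Nr3c2 was at -0.21 with the label in unstressed mice and 0.28 in the interaction. The cause of these reversals was not tested.

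With the first component removed, the 26 pair correlations that had passed the threshold all fell below it, and 12 of them changed sign, as did the 1 pair that passed only afterwards, Hif3a with Cdkn1a. These were Nr3c1 with Nr3c2 (-0.025), Ddit4 (0.0811), Cdkn1a (0.14) and Errfi1 (-0.0577), Nr3c2 with Ddit4 (0.23), Zbtb16 with Tsc22d3 (0.0829), Ddit4 (-0.34) and Errfi1 (0.31), Hif3a with Cdkn1a (-0.54) and Errfi1 (0.21), Ddit4 with Cdkn1a (-0.28) and Errfi1 (0.19), and Cdkn1a with Errfi1 (0.0308). Another prior count shifted r by at most 0.0024 over the 45 pairs, and other scaling factors by at most 0.055. No paired analysis was possible because the labels give the groups no shared replicate numbers.

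Hif3a rests on 16 to 264 fragments per library, Cdkn1a on 37 to 785 and Ddit4 on 43 to 534, so small differences in these 3 were not detectable at this depth and spread. The other 7 members had at least 651 fragments in each library, and their coefficients of variation over libraries were 14.5% or more. Among them, Nr3c1, Nr3c2 and Zbtb16 had standard errors of 0.27 to 0.28 in the pairwise comparisons. Small differences in these were therefore not detectable either, and the smallest pairwise standard error was 0.12, for Sgk1.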
